A study of Danio rerio with 17 samples.

Results

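The sarcomere and muscle contraction genes described here are the 89 of 15316 named zebrafish genes whose symbol begins with the stem of a myosin heavy or light chain, a troponin, a tropomyosin, a striated actin or alpha-actinin, a myosin-binding protein C, desmin, telethonin, calsequestrin, the calcium pump atp2a1, the ryanodine receptor, a muscle or mitochondrial creatine kinase, or a parvalbumin. By symbol, 32 of them were placed in a fast skeletal class, 12 in a slow skeletal class, 17 in a cardiac class, 10 in a class shared by striated muscles and 15 in a smooth muscle and non-muscle class, and 3 troponin I genes were left unclassified. The stems also take in genes of other tissues, such as pvalb7, which marks Purkinje cells of the zebrafish cerebellum. A count of 0 was listed for tnni4a in all 17 libraries, and the other 88 members were tested.

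The sarcomere is the contractile unit of striated muscle. When calcium is released from the sarcoplasmic reticulum it binds troponin, tropomyosin moves on the thin actin filament, and the heads of the thick myosin filament pull the thin filaments inward. Fast fibres, slow fibres and heart muscle use different paralogues of most of these proteins, and smooth muscle and non-muscle cells use others, so the balance between paralogues is a standard description of muscle identity.

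The measurements are RNA-seq read counts from AB-line zebrafish, with 10 whole embryos in each pool, collected at 72 hours post fertilization (hpf). The 6 FFA pools had received an injection into the yolk at 24 hpf of a BODIPY-labelled lipid carried in canola oil at 1 mg/ml, the 6 glucose pools were kept in 3% glucose from 24 hpf, and for the 5 control pools the labels name no treatment. The study asked how an excess of sugar or fat alters gene expression in the embryo. The labels do not say whether pools came from separate clutches, so a p-value covers only the variation among these pools. They name no injection of oil alone as a control.

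These groups follow the library titles. A second label, the treatment tag, names another group than the title for 11 of the 17 libraries. With groups taken from that tag, no member passed the test in glucose against control or in FFA against control. Of all genes 0.78% and 0.0074% passed there. In FFA against glucose 4 members passed with the tag, where 3.77% of all genes passed. Of these members actc1a, pvalb9 and myl4 were higher and tcap lower, each on the other side from its value with the titles. All 13 members called with the titles changed sign. Every direction given below for FFA against glucose therefore rests on the titles. Reads counted to genes numbered 10208640 to 16745675 per library, and every member named below as passing a test had at least 104 counts in each library. Levels are given in CPM, counts scaled to a common library total. They compare the same gene between groups and not one gene with another, because counts were not divided by gene length. In whole-embryo RNA, fewer cells of a type and less RNA per cell cannot be told apart, and no class is a measured cell type.

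Sarcomere genes took a large and similar share of the RNA in all groups. They held 7.88% ± 0.707 of gene counts in FFA pools (SD, n = 6), 8.07% ± 0.493 in glucose pools (n = 6) and 7.50% ± 0.799 in control pools (n = 5). The summed fast skeletal class was 56762 ± 6625 CPM in FFA pools, 59038 ± 5328 CPM in glucose pools and 52836 ± 7161 CPM in control pools. The slow skeletal class summed to 5761 ± 548 CPM in FFA pools, 6281 ± 710 CPM in glucose pools and 5725 ± 938 CPM in control pools. In both classes the 3 groups overlapped and their means lay within about 1 SD of each other.

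The cardiac class stood higher in glucose pools, at 2759 ± 320 CPM, against 2195 ± 173 CPM in FFA pools and 2270 ± 334 CPM in control pools. Single pools still overlapped, because the lowest glucose pool had 2155 CPM and the highest control pool 2711 CPM. Much of that gap was 1 actin: without actc1a the other 16 cardiac-class genes summed to 1746 ± 129 CPM in FFA pools, 1995 ± 232 CPM in glucose pools and 1788 ± 299 CPM in control pools. The shared striated class summed to 10466 ± 1233, 10776 ± 1108 and 10312 ± 1321 CPM in FFA, glucose and control pools, and the smooth muscle and non-muscle class to 3104 ± 109, 3169 ± 295 and 3182 ± 421 CPM in the same order.

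**Figure D1:**
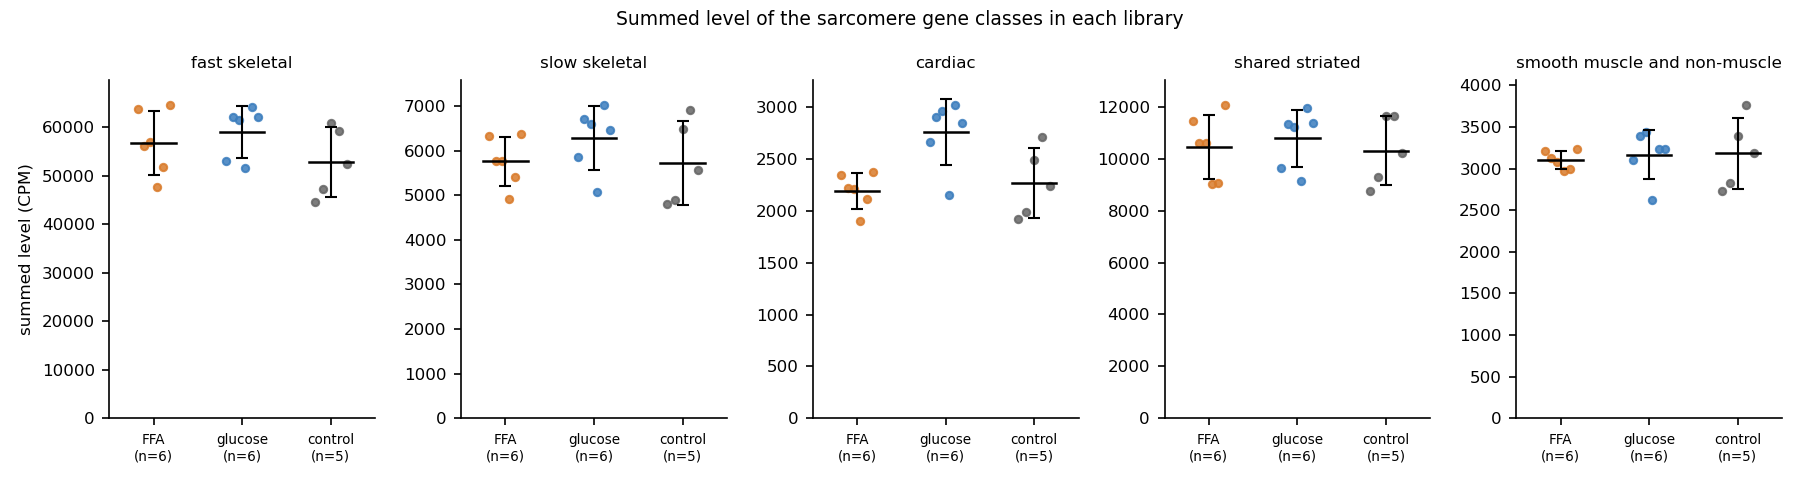
Summed level of each class (CPM, vertical axis from 0) in every FFA, glucose and control pool, with the mean (bar) and SD (whiskers). Groups overlap in all 5 classes, and 5 of the 6 glucose pools lie above every FFA pool for the cardiac class.

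The spread between pools was wider than the difference between groups. The total over all members ran 1.43-fold, from 62843 CPM in control replicate 1 to 89611 CPM in glucose replicate 5. The same pools differed in other measures. Counts outside annotated genes made up 29.9% to 36.6% of each library. A sum of 14 neuron genes, 13 of them tested, ran from 1412 to 3800 CPM. The 5 pools with the most counts outside genes, control replicates 1 and 2, FFA replicates 4 and 5 and glucose replicate 4, had the 5 lowest sarcomere totals, between 62843 and 71385 CPM. Such pools were present in every group, at 31.1% to 35.8% of counts outside genes in FFA pools, 30.2% to 36.2% in glucose pools and 29.9% to 36.6% in control pools. By group the neuron sum was 2187 to 3124 CPM in FFA pools, 1846 to 3455 CPM in glucose pools and 1412 to 3800 CPM in control pools. A sum of 13 photoreceptor genes was 2108 to 5398 CPM in FFA pools, 1284 to 7035 CPM in glucose pools and 1525 to 8180 CPM in control pools. Of either list 0 genes passed between any groups by edgeR, DESeq2 or limma-voom and 0 had an unadjusted p under 0.05, and the median log2 differences in glucose against control were -0.24 for neuron and -0.52 for photoreceptor genes. The part of this spread in the results below was not tested beyond the fits with the share of counts outside genes as a covariate and without control replicates 1 and 2 and glucose replicate 4, which are given where they bear on a count. The fit without these 3 pools kept FFA replicates 4 and 5. It thus removed low sarcomere totals from the control and glucose groups alone.

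**Figure D2:**
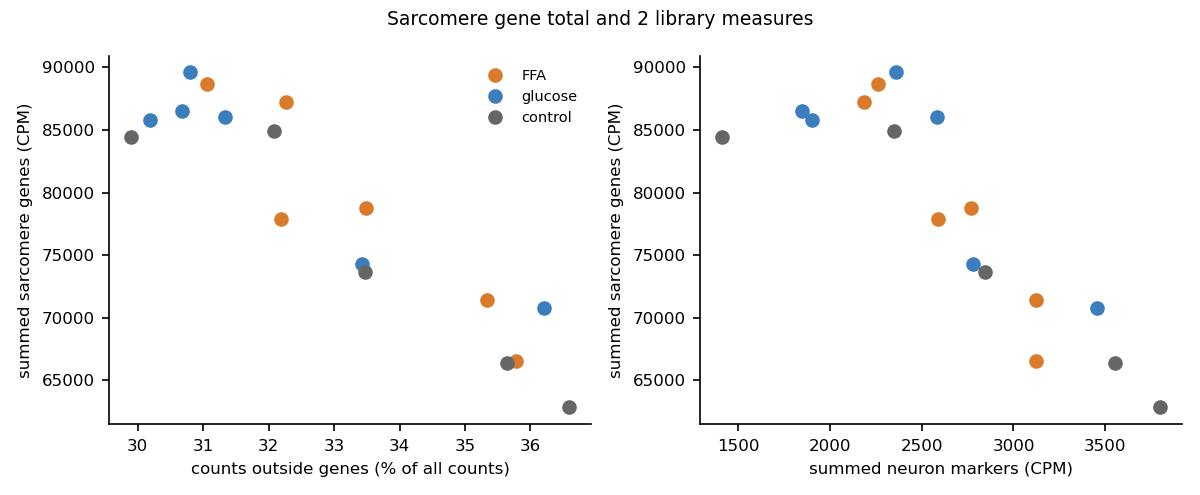
Summed level of all sarcomere genes (CPM) in each pool against the percentage of counts outside annotated genes (left) and against the summed neuron markers (right, CPM). Totals run from 62843 to 89611 CPM, and pools of all 3 groups with more counts outside genes or more neuron marker counts tend to have lower totals.

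Glucose pools differed from control pools in a small and mixed set of members. By edgeR's quasi-likelihood test with Benjamini-Hochberg adjustment over 13539 genes, 10 of 88 members passed an adjusted p under 0.05, against 10.9% of all genes tested. The 4 higher ones were actc1a, tnnt2c, tnnt3a and casq1a, where 5.87% of all genes were higher, and the 6 lower ones were mybpc2a, smyhc3, desmb, actn2b, myh11a and pvalb7, where 5.02% of all genes were lower. In this fit the share of members that passed was close to that of all genes. Ranges did not overlap for 6 members, against 6.9% of all genes, and 31 members had an unadjusted p under 0.05, against 25.1% of all genes.

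The classes leaned different ways in glucose against control. The median log2 difference was 0.16 in the fast class, 0.10 in the slow class and 0.12 in the cardiac class, against -0.25 in the shared striated and -0.19 in the smooth and non-muscle class, beside -0.003 over all genes. Fast class genes were on the positive side in 25 of 32 cases, cardiac class genes in 14 of 17 and slow class genes in 9 of 12. The shared striated class had 3 of 10 positive and the smooth and non-muscle class 6 of 15. Of all genes 49.4% were positive. These medians are descriptions. With the share of counts outside genes as a covariate the median over members was 0.02, against 0.11 without it, and 8 members were higher and 19 lower, where 18.6% of all genes passed. With library size alone as the scaling the split was 5 higher and 12 lower, where 11.1% of all genes passed. Without the 3 pools named above, 2 members were higher and 16 lower, where 8.75% of all genes passed. The number higher was 2 without any 1 of control replicates 1, 2 and 6 or glucose replicates 2, 3, 5 and 6. In those fits 7.9% to 8.79% of all genes passed. The number higher was 9 without control replicate 4 (11.6% of all genes) and 10 without glucose replicate 4 (14.9% of all genes). The number lower was 10 without control replicate 1, where 8.13% of all genes passed.

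FFA pools did not differ detectably from control pools in any single member. None of the 88 passed by edgeR, DESeq2 or limma-voom, against 1.82% of all genes by edgeR (1.1% higher and 0.716% lower), and no member had ranges that did not overlap, against 2.3% of all genes. An unadjusted p under 0.05 was reached by 5 members, against 10.2% of all genes. These were casq1a, desmb, mybpc2b, tnni2a.2 and tnnt2d, with log2 differences between -0.32 and 0.25. With the covariate 4 members passed, casq1a and tpm4a higher and tnnt2d and desmb lower, where 4.79% of all genes passed. Without the 3 pools 3 passed, tnni4b.3, tnnt2d and desmb, all lower, where 4.34% of all genes passed. The median log2 difference over members was -0.01, with 40 of 88 on the positive side, and its sign depended on the pools. It was 0.07, with 68 of 88 positive, without control replicate 4. Without the 3 pools, none of them FFA pools, it was -0.12, with 18 of 88 positive. Fast class genes were positive in 25 of 32 cases, the same count as in glucose against control, at a median of 0.09. The cardiac class had 5 of 17 positive and the shared striated class 3 of 10. In the slow class 3 of 12 were positive and in the smooth and non-muscle class 4 of 15. Of all genes 46.8% were positive. The same 5 control pools serve both comparisons.

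Between FFA and glucose pools 13 of the 88 members passed, or 14.8%, against 17% of all genes. In this fit members did not pass more often than genes at large. The 7 higher in FFA pools were mybpc2a, myhc4, tnni2a.1, smyhc3, actn2b, tcap and pvalb7, where 7.98% of all genes were higher, and the 6 lower were actc1a, tnnt2c, tnnt2d, myl7, pvalb9 and tnni4b.2, where 9% of all genes were lower. Ranges did not overlap for 8 members, against 8.69% of all genes, and 25 had an unadjusted p under 0.05, against 30.8% of all genes. Cardiac class genes were on the negative side in 15 of 17 cases, fast class genes in 23 of 32 and slow class genes in 9 of 12. Of all genes 50.2% were on the positive side. With the covariate 46 of 88 members were positive, against 31 without it. Most fast class genes were then on the positive side, so the lean of that class was not kept. Most cardiac and slow class genes stayed on the negative side. Of the cardiac class genes 4 passed without the covariate, actc1a, tnnt2c, tnnt2d and myl7, all lower in FFA pools. With the covariate tnnt2a of that class passed too, higher in FFA pools at 0.24 (edgeR, adjusted p = 0.0237). In the fit without the covariate, 4 members were higher once glucose replicate 5 was left out, where 13.3% of all genes passed. The number lower was 14 without glucose replicate 4, where 20.4% of all genes passed. Without the 3 pools 11 were higher and 21 lower, where 27.5% of all genes passed. With the covariate 20 members were higher and 9 lower, where 29.4% of all genes passed, and with library size alone 13 were higher and 6 lower, where 17.6% did. Both comparisons with glucose use the same 6 glucose pools, so their values are given side by side below.

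**Figure D3:**
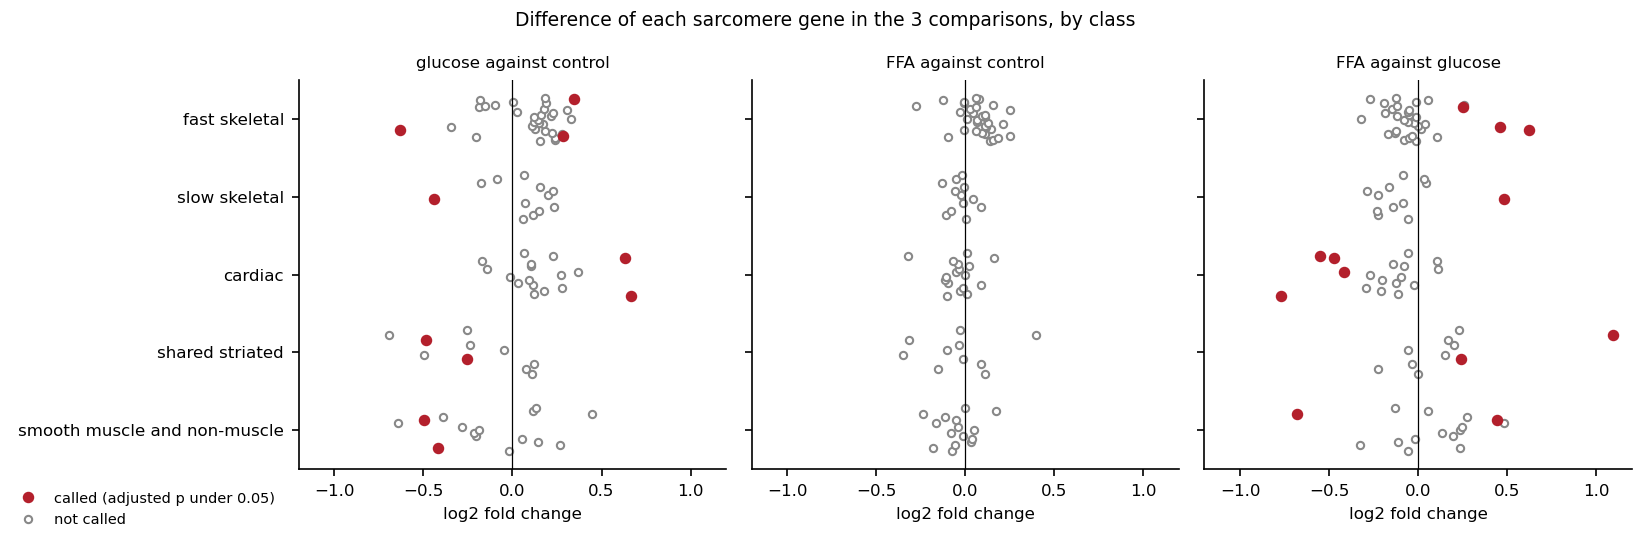
Log2 fold change of each tested, classified member in glucose against control (left), FFA against control (middle) and FFA against glucose (right), 1 point for each gene, by class, with filled points for adjusted p under 0.05. The filled points are on both sides of 0 in the outer panels, the cardiac ones are at 0.63 and 0.67 in glucose against control, and the middle panel has none.

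Among thick filament genes, the fast myosin-binding protein C gene mybpc2a, whose product binds myosin in fast fibres, had the smallest adjusted p. Its level was lowest 65.2, median 69.8 and highest 74.3 CPM in FFA pools, lowest 35.4, median 46.6 and highest 52.3 CPM in glucose pools, and 59.0, 59.9, 69.4, 90.7 and 70.1 CPM in control replicates 1, 2, 3, 4 and 6. All glucose pools were below all pools of the other groups. It was lower in glucose pools than in control pools by a log2 fold change of -0.63 ± 0.106 (SE; edgeR, adjusted p = 0.001), and FFA pools exceeded glucose pools by 0.62 ± 0.102 (edgeR, adjusted p = 0.000552). Its paralogue mybpc2b had log2 fold changes of 0.13 in glucose against control (edgeR, adjusted p = 0.255) and 0.02 in FFA against glucose (edgeR, adjusted p = 0.888).

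The slow myosin heavy chain smyhc3 was also lowest in glucose pools. It had 12.3, 14.1 and 15.7 CPM as lowest, median and highest value in FFA pools, 8.84, 9.64 and 13.5 CPM in glucose pools, and 14.2, 12.9, 13.0, 14.8 and 13.4 CPM in control replicates 1, 2, 3, 4 and 6. Glucose replicate 6, at 13.5 CPM, was within the range of both other groups and the other 5 glucose pools were below them. The log2 fold change was -0.44 ± 0.101 in glucose against control (edgeR, adjusted p = 0.0104) and 0.48 ± 0.097 in FFA against glucose (edgeR, adjusted p = 0.00273). The smyhc1, smyhc2 and smyhc3 genes are neighbours in the RefSeq annotation of assembly GRCz12tu, and the treatment of reads shared by such copies is not stated, so single copies are uncertain.

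The major myosin heavy chains did not follow smyhc3. The slow chain smyhc1 had 2361 ± 301 CPM in FFA pools, 2609 ± 270 CPM in glucose pools and 2218 ± 352 CPM in control pools, and the fast chain myhz1.1 had 9264 ± 1357, 9258 ± 516 and 8569 ± 908 CPM in that order. Neither passed in any comparison. The fast chain myhc4, next to myhz2 in the annotation, had 136, 212 and 231 CPM as lowest, median and highest in FFA pools, 120, 149 and 168 CPM in glucose pools, and 160, 134, 218, 237 and 178 CPM in control replicates 1, 2, 3, 4 and 6. FFA pools were mostly high, with the lowest of them inside the glucose range, and control pools overlapped both. FFA exceeded glucose by 0.46 ± 0.139 (edgeR, adjusted p = 0.0312). That adjusted p was between 0.052 and 0.075 without glucose replicate 1, 3, 5 or 6 or FFA replicate 1, 2, 3 or 4.

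Of the myosin light chains, myl7, the regulatory light chain of the zebrafish heart, passed in FFA against glucose. It had 50.1, 55.5 and 69.9 CPM as lowest, median and highest in FFA pools, 51.1, 76.9 and 95.4 CPM in glucose pools, and 50.5, 56.1, 58.0, 75.2 and 56.0 CPM in control replicates 1, 2, 3, 4 and 6. Glucose replicate 4 had the low glucose value and lay inside the FFA range. The log2 fold change was -0.42 ± 0.127 in FFA against glucose (edgeR, adjusted p = 0.0309) and 0.37 ± 0.133 in glucose against control (edgeR, adjusted p = 0.0908). The FFA against glucose value had an adjusted p between 0.0504 and 0.0767 without glucose replicate 1, 2, 3, 5 or 6 or FFA replicate 3, 4 or 5. The other heart genes myh6, an atrial myosin heavy chain, and tnnt2a, the troponin T mutated in silent heart fish, had log2 fold changes of 0.28 and -0.17 in glucose against control (edgeR, adjusted p = 0.186 and 0.482). With the covariate tnnt2a passed there, lower in glucose pools at -0.30 (edgeR, adjusted p = 0.0123), and myh6 did not, at 0.17 (edgeR, adjusted p = 0.176).

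Thin filament genes held the largest increases in glucose pools. The alpha-actin actc1a had 328, 462 and 509 CPM as lowest, median and highest value in FFA pools, 596, 793 and 845 CPM in glucose pools, and 402, 505, 513, 530 and 458 CPM in control replicates 1, 2, 3, 4 and 6. All 6 glucose pools were above every FFA and control pool. It was higher in glucose pools than in control pools by 0.67 ± 0.113 on the log2 scale (edgeR, adjusted p = 0.00105), and FFA pools were lower than glucose pools by a log2 fold change of -0.77 ± 0.107 (edgeR, adjusted p = 0.000144). FFA and control pools overlapped, with a difference of -0.10 (edgeR, adjusted p = 0.919). The other striated actins did not pass: actc1b had 6306 ± 824 CPM in FFA pools, 6449 ± 768 CPM in glucose pools and 5929 ± 811 CPM in control pools, and acta1a and acta1b differed by at most 0.23 on the log2 scale between any groups.

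Troponin T, which anchors the troponin complex on tropomyosin, gave 3 members. The gene tnnt2c had 35.2, 41.3 and 57.7 CPM as lowest, median and highest in FFA pools, 45.3, 61.6 and 66.7 CPM in glucose pools, and 33.3, 37.6, 39.1, 43.0 and 39.2 CPM in control replicates 1, 2, 3, 4 and 6. Every glucose pool was above every control pool, and FFA replicate 6, at 57.7 CPM, was within the glucose range. Glucose exceeded control by 0.63 ± 0.118 (edgeR, adjusted p = 0.00224) and FFA was lower than glucose, at -0.47 ± 0.111 (edgeR, adjusted p = 0.00762).

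Its relative tnnt2d had 151, 182 and 198 CPM in FFA pools, 190, 260 and 340 CPM in glucose pools, and 191, 173, 276, 265 and 213 CPM in control replicates 1, 2, 3, 4 and 6. FFA pools were low against glucose pools with a small overlap, and control pools spanned the gap. FFA against glucose gave -0.55 ± 0.129 (edgeR, adjusted p = 0.00707), and FFA against control gave -0.32 (edgeR, adjusted p = 0.377). The fast troponin T tnnt3a had 439, 507 and 566 CPM in FFA pools, 485, 616 and 734 CPM in glucose pools, and 416, 403, 559, 560 and 458 CPM in control replicates 1, 2, 3, 4 and 6. The ranges overlapped, and glucose exceeded control by 0.35 ± 0.106 (edgeR, adjusted p = 0.0433). That call ended, at adjusted p between 0.0533 and 0.113, without control replicate 1, 2 or 6 or glucose replicate 1, 2, 3, 5 or 6, and without the 3 pools together, at 0.0877.

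Troponin I, the inhibitory subunit, gave 2 members from tandem copies in FFA against glucose. The fast gene tnni2a.1 had 83.8, 94.2 and 105 CPM as lowest, median and highest in FFA pools, 71.2, 79.3 and 86.2 CPM in glucose pools, and 85.6, 77.8, 91.3, 103 and 92.8 CPM in control replicates 1, 2, 3, 4 and 6. The FFA pools were high with a slight overlap, and the difference was 0.25 ± 0.0727 (edgeR, adjusted p = 0.0252). The unclassified gene tnni4b.2 had 77.2, 89.3 and 114 CPM in FFA pools, 90.2, 128 and 156 CPM in glucose pools, and 93.0, 70.9, 121, 121 and 87.2 CPM in control replicates 1, 2, 3, 4 and 6. FFA was lower than glucose there, at -0.43 ± 0.141 (edgeR, adjusted p = 0.046), with overlapping ranges. The first call ended at up to 0.0589 without glucose replicate 5 or FFA replicate 1, 2 or 6. The call for tnni4b.2 ended at up to 0.114 without glucose replicate 2, 3, 5 or 6 or FFA replicate 1, 2, 3, 4 or 5.

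Tropomyosin tpm1, which covers the myosin sites on actin, came close to the threshold. It had 462, 490 and 510 CPM as lowest, median and highest in FFA pools, 343, 426 and 450 CPM in glucose pools, and 435, 442, 535, 596 and 483 CPM in control replicates 1, 2, 3, 4 and 6. All FFA pools were above all glucose pools. The log2 fold change was -0.26 in glucose against control (edgeR, adjusted p = 0.0519) and 0.23 in FFA against glucose (edgeR, adjusted p = 0.054), and with the covariate both passed. Without the covariate the slow class tropomyosins tpm2 and tpm3 differed by at most 0.09 on the log2 scale between any groups. With it tpm2 passed in glucose against control, at -0.18 (edgeR, adjusted p = 0.00572), and in FFA against glucose, at 0.13 (edgeR, adjusted p = 0.0193). The gene tpm3 did not pass with it.

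The Z-disc anchors the thin filaments of neighbouring sarcomeres, and its genes desmb and actn2b were lower in glucose pools than in control pools. Desmin forms the filaments that tie Z-discs together, and desmb had 51.3, 62.4 and 70.6 CPM as lowest, median and highest in FFA pools, 48.1, 53.8 and 62.6 CPM in glucose pools, and 67.6, 68.8, 89.0, 88.6 and 69.6 CPM in control replicates 1, 2, 3, 4 and 6. All 6 glucose pools were below all 5 control pools, while FFA pools overlapped both. Glucose was lower than control by a log2 fold change of -0.49 ± 0.103 (edgeR, adjusted p = 0.0063), and FFA against control gave -0.32 (edgeR, adjusted p = 0.172). Its paralogue desma gave -0.24 in glucose against control (edgeR, adjusted p = 0.105).

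Telethonin, encoded by tcap, caps titin at the Z-disc. It had 26.3, 37.0 and 59.3 CPM as lowest, median and highest in FFA pools, 13.6, 18.2 and 26.3 CPM in glucose pools, and 29.2, 25.9, 23.3, 44.7 and 29.5 CPM in control replicates 1, 2, 3, 4 and 6. FFA pools were all above glucose pools, although the highest glucose pool and the lowest FFA pool were close, and control pools overlapped both. FFA exceeded glucose by 1.09 ± 0.213 (edgeR, adjusted p = 0.00214), the largest difference of any member in the 3 comparisons. Glucose against control gave -0.70 ± 0.222 (edgeR, adjusted p = 0.0526).

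The alpha-actinin actn2b, which cross-links actin at the Z-disc, differed little in size. It had 62.8, 70.5 and 78.9 CPM in FFA pools, 56.6, 60.2 and 62.0 CPM in glucose pools, and 64.6, 61.7, 78.2, 87.3 and 65.8 CPM in control replicates 1, 2, 3, 4 and 6. The glucose pools were tightly grouped at the low end, below all FFA pools and all control pools but replicate 2. Glucose against control gave -0.26 ± 0.0801 (edgeR, adjusted p = 0.0494) and FFA against glucose 0.24 ± 0.0766 (edgeR, adjusted p = 0.0381). The call against control ended, at adjusted p between 0.0667 and 0.116, without control replicate 3 or 4 or any 1 glucose replicate, and the call against glucose, at up to 0.0874, without any 1 glucose replicate or FFA replicate 2, 3, 4 or 5.

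**Figure D4:**
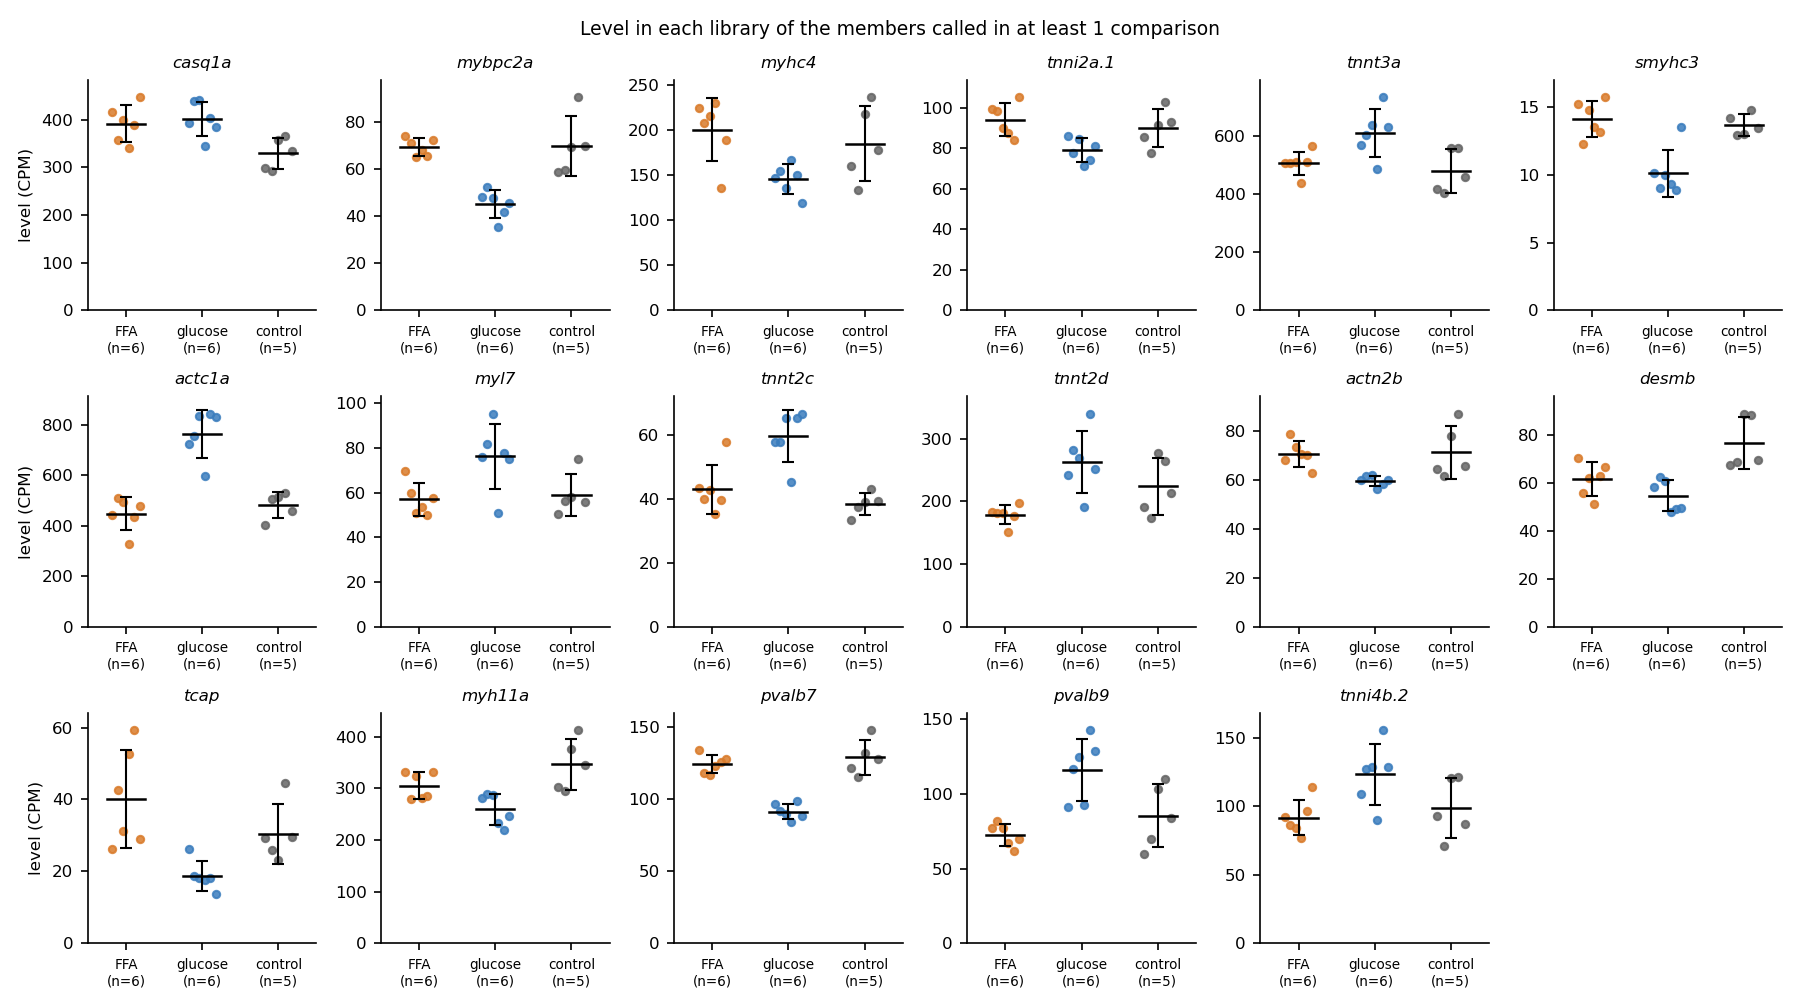
Level (CPM, vertical axis from 0) of the 17 members that passed in at least 1 comparison, in every FFA, glucose and control pool, with mean (bar) and SD (whiskers). Glucose pools stand apart from both other groups for actc1a, above them, and for mybpc2a and pvalb7, below them.

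Among calcium store genes, casq1a passed in glucose against control. Calsequestrin stores calcium in the sarcoplasmic reticulum, and the fast class gene casq1a had 341, 393 and 447 CPM as lowest, median and highest in FFA pools, 345, 399 and 442 CPM in glucose pools, and 298, 292, 356, 365 and 334 CPM in control replicates 1, 2, 3, 4 and 6. Pools of both treatments were high against control, with overlap. Glucose exceeded control by 0.29 ± 0.0836 (edgeR, adjusted p = 0.0357) and FFA by 0.25 (edgeR, adjusted p = 0.193). The glucose call ended, at adjusted p between 0.0512 and 0.0944, without control replicate 1, 2 or 6 or glucose replicate 1, 2, 3, 5 or 6, and at 0.106 without the 3 pools together. The calcium pump atp2a1, which refills the store in fast fibres, had 5868 ± 740 CPM in FFA pools, 6091 ± 511 CPM in glucose pools and 5166 ± 821 CPM in control pools, with an adjusted p by edgeR of 0.183 in glucose against control.

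Parvalbumins buffer calcium, and fast muscle uses some of them in large amounts. The abundant fast class gene pvalb1 had log2 fold changes of 0.21 in glucose against control and 0.10 in FFA against control (edgeR, adjusted p = 0.288 and 0.943). The gene pvalb7 had 117, 125 and 134 CPM as lowest, median and highest in FFA pools, 83.8, 90.5 and 98.7 CPM in glucose pools, and 121, 115, 132, 148 and 128 CPM in control replicates 1, 2, 3, 4 and 6. Every glucose pool was below every FFA and control pool. The log2 fold change was -0.50 ± 0.0626 in glucose against control (edgeR, adjusted p = 6.81e-05) and 0.44 ± 0.06 in FFA against glucose (edgeR, adjusted p = 0.000113). Although pvalb7 marks Purkinje cells, the tissue that gave these counts was not measured. Among control pools its highest value was in replicate 4, which had the lowest neuron sum, 1412 CPM.

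The gene pvalb9 went the other way. It had 61.6, 73.2 and 81.8 CPM in FFA pools, 91.1, 121 and 143 CPM in glucose pools, and 60.1, 70.1, 103, 110 and 83.5 CPM in control replicates 1, 2, 3, 4 and 6. All glucose pools were above all FFA pools, and control pools overlapped both. FFA was lower than glucose, at -0.68 ± 0.142 (edgeR, adjusted p = 0.00352), and glucose against control gave 0.44 ± 0.149 (edgeR, adjusted p = 0.0663). The annotation places pvalb9 beside pvalb3 and pvalb2, and those neighbours had differences of at most 0.23 on the log2 scale between any groups.

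Outside striated muscle, the smooth muscle myosin heavy chain myh11a was lower in glucose pools. It had 281, 305 and 331 CPM as lowest, median and highest in FFA pools, 220, 265 and 290 CPM in glucose pools, and 302, 295, 377, 413 and 346 CPM in control replicates 1, 2, 3, 4 and 6. All glucose pools were below all control pools, and FFA pools lay between and overlapped both. Glucose against control gave -0.42 ± 0.0961 (edgeR, adjusted p = 0.0104), and FFA against glucose 0.23 (edgeR, adjusted p = 0.091). The non-muscle myosin heavy chain myh9a, by contrast, had 674 ± 31.8 CPM in FFA pools, 846 ± 124 CPM in glucose pools and 702 ± 151 CPM in control pools and did not pass. The mitochondrial creatine kinase ckmt2a varied widely within each group, with 30.9, 87.7 and 103 CPM in FFA pools, 29.3, 45.4 and 190 CPM in glucose pools, and 204, 144, 58.9, 30.2 and 37.7 CPM in control replicates 1, 2, 3, 4 and 6. Its 3 highest values were in control replicate 1, glucose replicate 4 and control replicate 2, pools with many counts outside genes. Those pools also had the 3 highest photoreceptor sums, at 8180, 7035 and 6191 CPM in that order. The part of either measure in the ckmt2a values was not tested, and the tissue that gave its counts was not measured.

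Of the 10 glucose against control calls, those of actc1a, tnnt2c, mybpc2a, smyhc3, desmb, myh11a and pvalb7 held in all 11 fits that left out 1 pool. Of the 13 FFA against glucose calls, those of actc1a, pvalb7, smyhc3, mybpc2a, tnnt2c, pvalb9, tnnt2d and tcap held in all 12.

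The ratio of paralogues within a pool does not depend on how the library totals are scaled. The log2 ratio of 16 pairs of related members was compared in each of the 3 comparisons by two-sided exact permutation over pools, with adjustment over the 48 tests. The smallest p this design allows is 0.00433 for 6 pools against 5 and 0.00216 for 6 against 6. An adjusted p under 0.05 was reached by 8 pairs in glucose against control, 4 in FFA against control and 9 in FFA against glucose. These pairs were chosen after the values were seen, and several hold a member described above. Ratios of other gene pairs were not computed, so no share over genes at large stands beside these counts. The 3 ratios among smyhc1, smyhc2 and smyhc3 are not independent, as each follows from the others. All of them are among the 8 pairs in glucose against control.

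The actin ratio actc1a over actc1b was -3.82 ± 0.2 in FFA pools, -3.08 ± 0.0784 in glucose pools and -3.62 ± 0.133 in control pools on the log2 scale. Glucose exceeded control by 0.54 (exact permutation p = 0.00433, adjusted 0.0139), with no overlap. The ratio of mybpc2a over mybpc2b was -1.75 ± 0.0977 in FFA pools, -2.37 ± 0.183 in glucose pools and -1.61 ± 0.141 in control pools, so glucose was lower than control, by a difference of -0.75 (exact permutation p = 0.00433, adjusted 0.0139). The ratio of smyhc1 over smyhc3 was 7.38 ± 0.155 in FFA pools, 8.02 ± 0.277 in glucose pools and 7.33 ± 0.226 in control pools, a difference of 0.69 between glucose and control (exact permutation p = 0.00433, adjusted 0.0139). In these 3 pairs all glucose pools lay on one side of all control pools.

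Some ratios moved although neither gene passed alone in the fit of all pools without a covariate. The fast regulatory light chains mylpfa and mylpfb had a log2 ratio of 2.01 ± 0.0761 in FFA pools, 1.76 ± 0.0407 in glucose pools and 1.96 ± 0.0632 in control pools. Glucose differed from control by -0.19 (exact permutation p = 0.00433, adjusted 0.0139), with every glucose pool below every other pool. With the covariate mylpfb did pass alone, at 0.21 in glucose against control (edgeR, adjusted p = 0.0349) and -0.21 in FFA against glucose (edgeR, adjusted p = 0.0197). The skeletal actins acta1a and acta1b had a ratio of -1.23 ± 0.0752 in FFA pools, -1.47 ± 0.102 in glucose pools and -1.49 ± 0.14 in control pools. FFA exceeded control by 0.26 there (exact permutation p = 0.00433, adjusted 0.0139) and glucose by 0.24 (exact permutation p = 0.00216, adjusted 0.0139), and every FFA pool was above every other pool.

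The desmin ratio desma over desmb was higher than control in both treatments, by 0.29 in FFA pools and 0.25 in glucose pools (exact permutation p = 0.00433, adjusted 0.0139, in each). Both treatments are set against the same 5 control pools. The casq1a over casq1b ratio was higher in FFA pools than in control pools by 0.14 and the myl9a over myl9b ratio differed by -0.14 (adjusted exact permutation p = 0.0328 and 0.0231). Without control replicates 1 and 2 and glucose replicate 4, the difference was 0.13 for casq1a over casq1b in FFA against control, and 0.11 for tnnt3a over tnnt3b and 0.14 for smyhc1 over smyhc2 in glucose against control. The unadjusted exact permutation p was then 0.0714 in each, where the smallest p that the remaining pools allow is 0.0238 for FFA against control and 0.0357 for glucose against control.

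**Figure D5:**
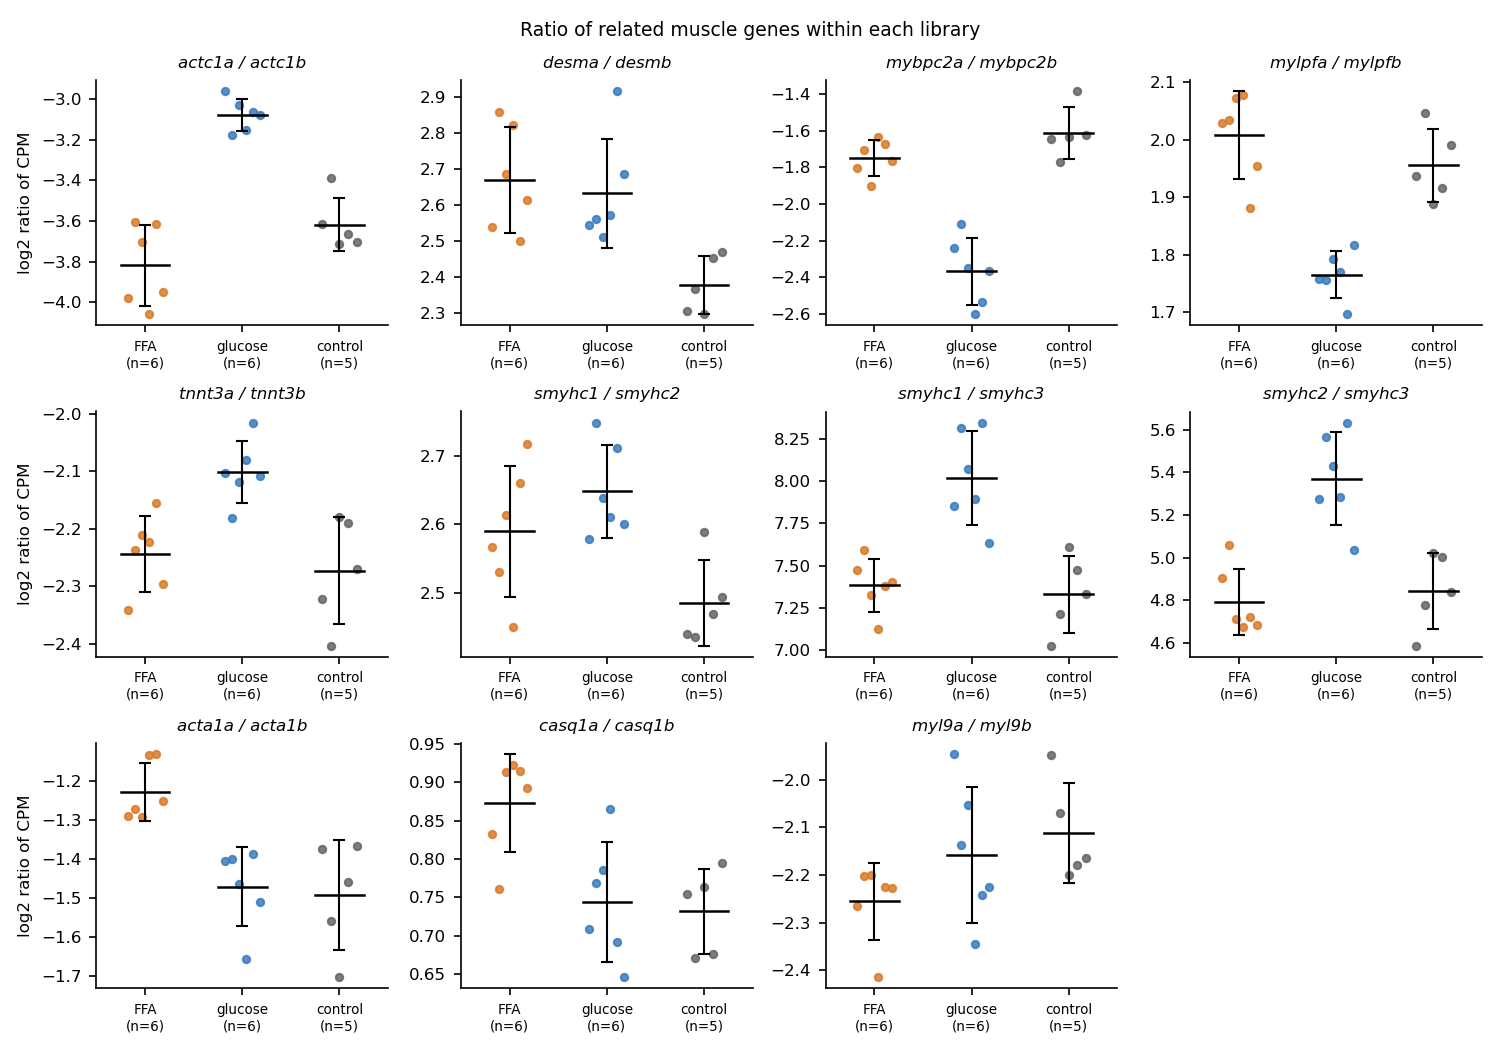
Log2 ratio of CPM within each pool for 11 pairs of related members with an adjusted exact permutation p under 0.05 in FFA or glucose against control, with mean (bar) and SD (whiskers); the vertical axes do not start at 0. Glucose pools are apart from both other groups for actc1a over actc1b, mybpc2a over mybpc2b, mylpfa over mylpfb and smyhc1 over smyhc3, and FFA pools for acta1a over acta1b.

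Genes that build, anchor and fuel the sarcomere, were taken from 7 lists of muscle genes outside the members. Of 106 genes tested, 18 passed in glucose against control (17.0%, against 10.9% of all genes), 6 in FFA against control (5.66%, against 1.82%) and 24 in FFA against glucose (22.6%, against 17%). The lists were chosen with earlier results of these data known, so these shares are descriptions and not a test of muscle genes. The same shares of all genes stand beside the called counts of each single list below. The FFA against control count was 2 or 3 without control replicate 3 or 6 or FFA replicate 3 or 4. In those fits 1.16% to 1.48% of all genes passed.

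Among 12 tested genes of myosin assembly and turnover, 2 were higher and 1 lower in glucose against control, 1 was higher in FFA against control, and 3 were higher and 4 lower in FFA against glucose. The calpain gene capn3b had 64.0 ± 7.54 CPM in FFA pools, 113 ± 17.9 CPM in glucose pools and 56.4 ± 8.42 CPM in control pools. Its log2 fold change was 1.00 ± 0.12 in glucose against control (edgeR, adjusted p = 3.5e-05). The tissue that gave these counts was not measured. The myosin chaperone hsp90aa1.1 was higher in glucose pools, by 0.61 ± 0.121 (edgeR, adjusted p = 0.00351). Its neighbour in name hsp90aa1.2 was higher in FFA pools, at 196 ± 68.3 CPM, against 89.0 ± 18.3 CPM in glucose pools and 84.5 ± 20.4 CPM in control pools (edgeR, adjusted p = 0.00574 against control). The ubiquitin ligase fbxo32, known from muscle atrophy, was lower in glucose pools by a log2 fold change of -0.53 ± 0.107 (edgeR, adjusted p = 0.00397). The myosin chaperone unc45b and the methyltransferase smyd1b were both lower in FFA than in glucose pools, each at -0.29 (edgeR, adjusted p = 0.0407 and 0.0457).

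Of 10 tested dystrophin complex genes, 2 sarcoglycans were higher in glucose against control, 0 passed in FFA against control and 1 was lower in FFA against glucose. The sarcoglycan sgcg had 21.2 ± 4.04 CPM in FFA pools, 33.4 ± 2.45 CPM in glucose pools and 20.1 ± 4.09 CPM in control pools (edgeR, adjusted p = 0.00207 in glucose against control). At the neuromuscular junction 2 of 10 genes were higher in glucose against control, the acetylcholine receptor subunit genes chrnb1 and chrnb1l. Of the 10 genes 0 passed in FFA against control and 1 was lower in FFA against glucose. The level of chrnb1l was low, at 2.70 ± 0.477 CPM in glucose pools and 1.71 ± 0.222 CPM in control pools, so its call rests on few counts. In FFA against control, 1 of 10 dystrophin complex genes and 3 of 10 neuromuscular junction genes had an unadjusted p under 0.05, against 10.2% of all genes. DESeq2 and limma-voom called 0 of either. In excitation-contraction coupling 1 of 17 genes was higher and 2 lower in glucose against control, 1 was lower in FFA against control and 3 were lower in FFA against glucose. The calcium pump atp2a2a was lower in both treatments, with 71.9 to 84.0 CPM in FFA pools, 76.6 to 84.1 CPM in glucose pools and 85.2 to 105 CPM in control pools (edgeR, adjusted p = 0.0024 for FFA and 0.00395 for glucose). Both treatments are set there against the same 5 control pools. Its paralogue atp2a2b gave log2 fold changes of 0.20 in glucose against control and -0.18 in FFA against control (edgeR, adjusted p = 0.253 and 0.679). In FFA against glucose atp2a2b passed, at -0.38 (edgeR, adjusted p = 0.0159).

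Muscle energy enzymes held 3 of the 6 FFA against control calls. Of 15 genes, 3 were lower in FFA against control, 1 was higher in glucose against control and 6 were lower in FFA against glucose. The glycolytic mutase pgam2 had 189 ± 18.6 CPM in FFA pools, 312 ± 40.6 CPM in glucose pools and 262 ± 44.0 CPM in control pools, and was lower in FFA pools than in control pools by a log2 fold change of -0.47 ± 0.111 (edgeR, adjusted p = 0.0356). The aldolase aldoaa and the phosphorylase kinase subunit phkg1a were the other lower genes in FFA against control, at -0.27 and -0.39 (edgeR, adjusted p = 0.0291 and 0.0413). The muscle glycogen phosphorylase pygma was highest in glucose pools, with 238 ± 38.2 CPM in FFA pools, 385 ± 33.2 CPM in glucose pools and 269 ± 23.9 CPM in control pools (edgeR, adjusted p = 0.00316 in glucose against control).

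The scaffold and regulator lists were mixed. Of 21 scaffold genes of the Z-disc, M-band and thin filament, 3 were higher and 2 lower in glucose against control, 0 passed in FFA against control, and 2 were higher and 2 lower in FFA against glucose. In FFA against control 4 of the 21 scaffold genes had an unadjusted p under 0.05, against 10.2% of all genes, with 1 called by DESeq2 and 0 by limma-voom. The thin filament capping gene tmod4 had 268 ± 33.2 CPM in FFA pools, 338 ± 38.8 CPM in glucose pools and 259 ± 34.5 CPM in control pools (edgeR, adjusted p = 0.026 in glucose against control). Of 21 myogenic regulators, 1 was higher and 1 lower in glucose against control, 1 was higher in FFA against control, and 2 were higher in FFA against glucose. The gene pax7a, a marker of muscle progenitors that neural crest cells also use, had 20.7 ± 3.86 CPM in FFA pools, 13.0 ± 3.48 CPM in glucose pools and 20.9 ± 4.90 CPM in control pools (edgeR, adjusted p = 0.0251 in glucose against control). The slow fibre regulator prdm1a was higher in both treatments, by 0.32 in FFA pools and 0.25 in glucose pools on the log2 scale (edgeR, adjusted p = 0.0232 and 0.03). These 2 values use the same 5 control pools.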

How the data were processed

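RNA-seq was analysed from 17 pools of whole zebrafish embryos. The authors deposited raw counts, 1 whole number per gene and pool, for 15316 named genes, and 2 lines without a gene. STAR, DESeq2 and danRer7 are named without role or version, per the submitters' processing notes. Libraries were stranded and read as 75 bp pairs, per the labels' protocols; the counting tool, the annotation and the treatment of multi-mapped reads are not stated. Counts outside genes (29.9% to 36.6% of a library) were left out of totals.

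Counts were tested with edgeR 4.0.16 in R 4.3.3, with filterByExpr (minimum count 10), TMM scaling, quasi-likelihood F-tests in a single model of 3 groups with 14 residual degrees of freedom, and Benjamini-Hochberg adjustment over 13539 genes; calls had an adjusted p under 0.05. CPM values were computed from the deposited counts. DESeq2 1.42.0 and limma 3.58.1 (voom) were alternatives. The model was tested on simulated data. Replicate pairs differed beyond sampling noise, with a chi-square per degree of freedom of 4.34 to 68.9 over 40 pairs.

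Members, classes and lists were chosen with earlier results of these data known. Named members are those called in any comparison, the 4 most abundant of each class and, per comparison, the 3 with the largest change among those with a mean of at least 1 CPM; paralogue pairs and some related genes were added after their values were seen. All 89 members matched RefSeq entries of GRCz12tu (88 by symbol, 1 by synonym), used for names and neighbours. Sequences were not analysed here.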

Additional observations from a re-analysis of the deposited data

Results flagged for a closer look

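Dixon's criterion was applied to each named member and each class sum within each group, 138 cases in all. In 8 of them 1 pool stood apart from its group, where chance flags about 1 in 20. The number flagged was thus close to that share. In glucose replicate 4, casq2 (307 CPM), myh7 (282 CPM), tpm1 (343 CPM) and tpm3 (833 CPM) were each the lowest of the 6 glucose pools and ckmt2a (190 CPM) the highest. That pool also has 36.2% of its counts outside genes and 3455 CPM of summed neuron markers, the highest of the glucose pools in both; the part of these in the 5 values was not tested. The other pools that stood apart were glucose replicate 6 for smyhc3 (13.5 CPM, next pool 10.1 CPM), control replicate 4 for tcap (44.7 CPM, next pool 29.5 CPM) and FFA replicate 6 for tnnt2c (57.7 CPM, next pool 43.4 CPM).

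The 2 treatments differed from each other for 13 of 88 members (14.8%) by the test of FFA against glucose (edgeR, adjusted p under 0.05). Of all genes 17% passed, so in this fit members did not pass more often than genes at large. The log2 difference was positive for tcap (1.09), mybpc2a (0.62), smyhc3 (0.48), myhc4 (0.46), pvalb7 (0.44), tnni2a.1 (0.25) and actn2b (0.24). It was negative for actc1a (-0.77), pvalb9 (-0.68), tnnt2d (-0.55), tnnt2c (-0.47), tnni4b.2 (-0.43) and myl7 (-0.42). With groups from the treatment tag all 13 signs turned.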

How the results depend on the processing

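The treatment tag turned directions. With it the log2 difference in FFA against glucose was 0.68 for actc1a, 0.67 for pvalb9, 0.50 for tnnt2d, 0.47 for myl7, 0.41 for tnnt2c, 0.39 for tnni4b.2, -0.19 for tnni2a.1, -0.22 for actn2b, -0.30 for myhc4, -0.32 for pvalb7, -0.34 for smyhc3, -0.47 for mybpc2a and -1.19 for tcap, each against its sign with the titles. In glucose against control it was -0.22 for actc1a, 0.035 for actn2b, 0.051 for mybpc2a and 0.086 for smyhc3, also turned. The other scalings, DESeq2, the covariate, the replicate block and leaving out 1 or the 3 pools turned the sign of no named member that was called.

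In glucose against control, where 4 members were higher and 6 lower, higher counts were 7 by DESeq2, 8 with the covariate of counts outside genes, 2 with the replicate block, 2 without the 3 pools, 2 with the 2 groups fitted alone and 0 with groups from the treatment tag. Lower counts were 12 with library size alone (so the split was 5 higher and 12 lower), 11 by DESeq2, 19 with the covariate, 16 without the 3 pools and 0 with the tag. Of all genes 12.8% passed by DESeq2, 18.6% with the covariate, 6.72% with the block and 8.75% without the 3 pools. With the 2 groups alone 7.51% passed, with library size alone 11.1% and with the tag 0.78%. In FFA against control, where none passed, the covariate gave 2 higher and 2 lower, and 3 were lower without the 3 pools. Of all genes 4.79% and 4.34% passed in these fits. In FFA against glucose, with 7 higher and 6 lower, higher counts were 13 with library size alone, 20 with the covariate and 11 without the 3 pools. Higher counts were 12 with the 2 groups alone and 3 with the tag, these 3 not among the 7. Lower counts were 21 without the 3 pools and 1 with the tag, not among the 6. Of all genes 17.6% passed with library size alone, 29.4% with the covariate and 27.5% without the 3 pools. With the 2 groups alone 18.5% passed, and with the tag 3.77%. Of 106 partner genes 18, 6 and 24 passed in glucose against control, FFA against control and FFA against glucose. With the covariate these counts came to 30, 14 and 38, and with the tag to 2, 0 and 9. With the replicate block the first and second came to 11 and 2, where 6.72% and 0.872% of all genes passed. Members without overlap, 6, 0 and 8, came to 22, 7 and 16 of 88 without the 3 pools (25%, 7.95% and 18.2%, against 17.0%, 8.34% and 13.9% of all genes), and to 1 in FFA against control with library size alone, against 2.52% of all genes. Leaving out 1 pool gave 2 to 10 higher and 5 to 10 lower in glucose against control (7.9% to 14.9% of all genes). It gave 0 in FFA against control (1.16% to 1.87% of all genes). In FFA against glucose 4 to 6 were higher and 4 to 14 lower (12.2% to 20.4% of all genes). Partner counts ran 12 to 26, 2 to 6 and 17 to 27 in the same order. The cause of these shifts was not tested. Scaling moved the all-gene median by at most 0.04 on the log2 scale.

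Whether replicate numbers pair the pools is not settled here: deviations of same-numbered pools correlated between -0.76 and 0.518. The block kept 7 of the 10 glucose against control and 9 of the 13 FFA against glucose calls, ending actn2b, casq1a and tnnt3a in the first and actn2b, tnni4b.2, tnni2a.1 and myl7 in the second. Depth limits the rarest members: smyhc3 rests on as few as 104 counts in a library. The planned description of protein and promoter sequences was not run.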
